A study of Mus musculus with 2 samples.

Results

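The STAT (signal transducer and activator of transcription) genes described here are Stat2, Stat3, Stat4, Stat5a, Stat5b and Stat6, taken by gene symbol from the deposited count files. All 6 had reads in both libraries and a mean level above 1 CPM (counts per M reads of the scaled library), among 15574 genes with a read in either library and 10462 genes at that level. Messenger RNA was sequenced from T helper 17 (Th17) cells, which are CD4 T cells that produce IL-17A and IL-17F, grown in vitro from naive T cells of C57BL/6 background. One library was labelled CREB KO and the other wildtype. Both had 6 days of culture with IL6, TGFb, IL1b and IL23 and then 4 h on plate-bound CD3. The comparison asks which genes CREB, the cyclic AMP-responsive factor encoded by Creb1, controls in these cells. How the knockout was made, and whether cells of several animals were pooled, was not given in the sources used here.

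There was 1 library per genotype, with 23.9 M counted reads in the library labelled CREB KO and 26.5 M in the wildtype library. No p-value can therefore be given, and each difference lies between 2 libraries, not between genotypes. Intervals are exact 95% intervals for counting error only, and reads amplified by PCR are not independent molecules, so they may be too narrow. Creb1 itself had 25 reads in the library labelled CREB KO and 13 in the wildtype library, a ratio of 2.08 (1.04 to 4.51). Its mean of 0.766 CPM lies below the 1 CPM level used for the other genes, and it has 3 curated transcripts. The counts of the targeted gene thus do not bear out the label. At this low level they cannot decide whether the label is right. Of 8 Th17 marker genes, Il17a, Il17f and Il21 had the highest levels in both libraries. Ccr6 stood at only 2.42 CPM in the library labelled CREB KO and 2.99 in the wildtype library, and Il1r1 had 0 and 3 reads. T cell markers summed to 1832 and 1864, although 1 of the 6, Trac, had no reads, and NK cell markers had none. Of the CD8 T cell markers, Cd8b1 stood at 9.75 and 8.96 CPM and Cd8a had no reads. B cell markers (at most 2.21 CPM), myeloid markers (at most 1.04), Th1 markers (at most 2.63) and the Treg markers (at most 2.23) were low, and the 4 Th2 markers summed to 12.5 and 12.2.

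STAT proteins wait in the cytoplasm until a cytokine receptor and its bound Janus kinase (JAK) phosphorylate them on a tyrosine. They then pair, enter the nucleus and bind DNA, mostly at GAS elements. STAT3 carries the signals of IL-6, IL-21 and IL-23 and is required for Th17 differentiation. STAT5A and STAT5B carry those of IL-2 and can oppose STAT3 at the Il17 locus. STAT4 serves IL-12 and also IL-23, STAT6 serves IL-4 and IL-13, and STAT2 pairs within the interferon-activated complex ISGF3, which binds ISRE elements. Activity depends on phosphorylation, which was not measured, so the values below are transcript levels only.

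The genes lie in 3 chromosomal groups (GRCm38, GENCODE M21). Stat5b (11, 100780731 to 100850724), Stat5a (100859351 to 100885169) and Stat3 (100885098 to 100939540) are neighbours on chromosome 11. Stat5a and Stat3 run towards each other, and their last 72 bases overlap on opposite strands. Stat6 (127642986 to 127660957) and Stat2 (128270559 to 128292849) lie on chromosome 10, and Stat4 (51987148 to 52107189) on chromosome 1. The coding sequences of Stat5a and Stat5b were 90.3% identical over 2291 aligned bases, whereas the other 14 pairs were 45.5% to 57.1% identical. The longest run shared by Stat5a and Stat5b spans bases 571 to 894 of both coding sequences, in exons 6 to 8 of each gene (chr11:100874023-100874983 and chr11:100797741-100798701). It is shown because a short read inside it fits either gene.
Stat5a and Stat5b, first 150 of the 324 identical bases: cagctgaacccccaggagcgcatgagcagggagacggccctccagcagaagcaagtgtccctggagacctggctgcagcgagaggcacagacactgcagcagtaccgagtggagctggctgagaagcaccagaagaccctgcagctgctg

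The least alike stretch of 60 bases without a gap lies at coding bases 85 to 144 of both genes, in exons 2 and 3, where 41 bases are identical. Capitals mark the bases that differ, which let a read be assigned to 1 of the genes.
Stat5a: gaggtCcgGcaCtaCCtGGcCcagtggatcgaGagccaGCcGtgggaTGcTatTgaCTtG
Stat5b: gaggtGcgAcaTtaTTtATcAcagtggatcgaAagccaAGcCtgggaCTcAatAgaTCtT
Of all 50-base windows in the curated transcripts, 15.9% of those of Stat5a and 11.1% of those of Stat5b occurred in another gene, against 0.367% for Stat3 and 0% for Stat2 and Stat6. For Stat4 the share was 27.1%, all of it in Gm28177, a noncoding model that covers 1033 of its exonic bases on the same strand. Neither the read length nor the counting of reads that fit several features was given in the sources used here.

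The RefSeq start sites of the 6 genes (9 windows of 300 bases, 250 before to 50 after the start, GRCm38.p6) were searched on both strands for 4 motifs that link the family to its own signals and to CREB. The full cyclic AMP response element TGACGTCA was in 0 of 9 windows, and in 1.79% of all 32851. Its core TGACG was in 3 of 9, for Stat4, Stat5a and Stat6, and in 20.8% of all windows. GAS (TTCNNNGAA) was in 0 of 9 windows and in 8.30% of all. The ISRE core, GAAA repeated after a gap of 2 bases, was in 2 of 9, for Stat2 and a second start site of Stat4, and in 3.44% of all. The matches are printed with the motif in capitals because Stat2 is itself a subunit of the ISRE-binding complex and CREB binds TGACG. They are letters in a window, not shown sites.
Stat2, ISRE core on the opposite strand, from position -222, chr10:128270267-128270294: gcaccctggTTTCAGTTTCctttcccta
Stat4, ISRE core, from position -97, chr1:52008134-52008161: atgtcttcaGAAAGTGAAAtttagaacg
Stat4, TGACG, from position 11, chr1:51987148-51987174: aatattccaccTGACGcagagctgtcc
Stat6, TGACG on the opposite strand, from position -33, chr10:127642942-127642968: cttctctgtgtCGTCAgagcgccaggg
Stat5a, TGACG on the opposite strand, from position 32, chr11:100860505-100860531: ccgtcaagagcCGTCAggagccgtcag
Positions count from the start site as 0. The Stat5a window holds 3 copies, from positions 22, 32 and 42.

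Of the 6 genes described, Stat6, which carries IL-4 and IL-13 signals, had the most reads. It had 6184 in the library labelled CREB KO and 7234 in the wildtype library. Stat2, of the interferon complex, followed with 3160 and 3467 reads. Stat4 had 1720 and 2211 reads, and Stat5a 805 and 802. Stat3, the factor of the Th17 program, had only 362 and 420 reads, and Stat5b 246 and 238. Shares are of the summed reads of these 6 genes only, 12477 in the library labelled CREB KO and 14372 in the wildtype library. Stat6 held 49.6% (48.7% to 50.4%) and 50.3% (49.5% to 51.2%), whereas Stat3 held 2.90% (2.61% to 3.21%) and 2.92% (2.65% to 3.21%).

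**Figure D1:**
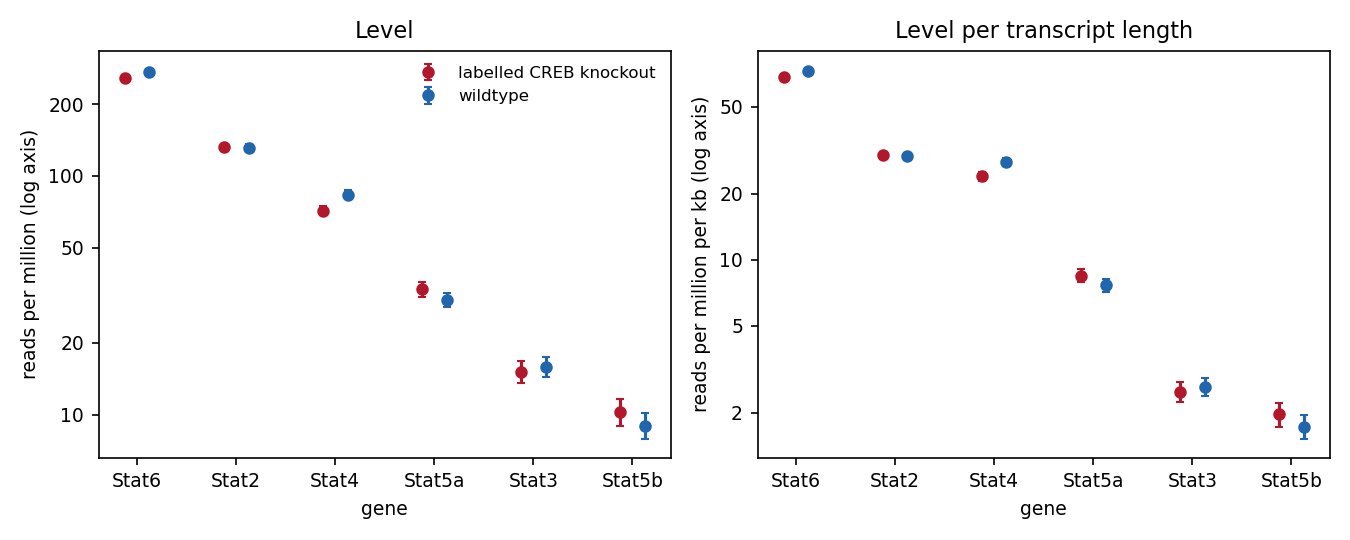
Levels of the STAT genes in the library labelled CREB knockout (red) and the wildtype library (blue), as CPM (left) and CPM per kb of the longest transcript model (right), both on log axes; bars are exact 95% Poisson intervals for counting error, 1 library per group. The order runs from Stat6 to Stat5b in both libraries, and the libraries differ much less than the genes do.

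Levels can be compared between genes only per length, here as CPM per kb of the longest transcript model. On this scale Stat6 stood at 68.3 in the library labelled CREB KO and 72.4 in the wildtype library. Stat2 followed at 29.9 and 29.8, and Stat4 at 24.0 and 28.03. Their counting intervals overlapped in the wildtype library (28.8 to 30.8 for Stat2, 26.9 to 29.2 for Stat4) and did not in the library labelled CREB KO (28.9 to 31.0 and 22.9 to 25.2). Stat5a was lower at 8.47 and 7.66, then Stat3 at 2.496 and 2.63 and Stat5b at 1.97 and 1.73. The intervals of Stat3 and Stat5b lay next to each other in the library labelled CREB KO (2.25 to 2.77 and 1.73 to 2.23) and apart in the wildtype library (2.38 to 2.89 and 1.51 to 1.96). Among the 10462 genes, ordered by CPM in the wildtype library, Stat6 ranked 620 and Stat3 6442.

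This order moved with the number of transcripts annotated for a gene. Stat2 and Stat6, the genes with the most reads, have 1 curated RefSeq transcript each, Stat4 has 2, and Stat3, Stat5a and Stat5b have 3. Over all protein-coding genes with a read, the median level was 16.2 CPM for 7502 genes with 1 curated transcript, 6.94 for 2912 genes with 2, 4.99 for 1436 genes with 3 and 4.04 for 1767 genes with 4 or more. The part of the counting in this pattern was not tested. Of the exonic bases of the curated models (2 of 3 matched in GENCODE for Stat5b, all for the others), 29.7% in Stat3, 20.7% in Stat4, 14.5% in Stat5b and 7.81% in Stat5a lie in 1 model only. Set against those bases alone, which is a scale chosen after the counts were seen, Stat4 stood highest at 110 and 128 CPM per kb. Stat5a came next at 108 and 97.8, Stat6 at 68.3 and 72.4, Stat2 at 29.96 and 29.8, Stat5b at 12.8 and 11.2 and Stat3 lowest at 8.16 and 8.59. The bases used are mainly the end of 1 long last exon in Stat3. In Stat4, Stat5a and Stat5b they are nearly all first exons, so this scale compares unlike parts of the genes. Stat2 stayed below Stat6 on both scales, and these genes with 1 curated transcript are the pair whose relative level does not depend on shared bases. The rank of Stat4 and Stat5a against them does.

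**Figure D2:**
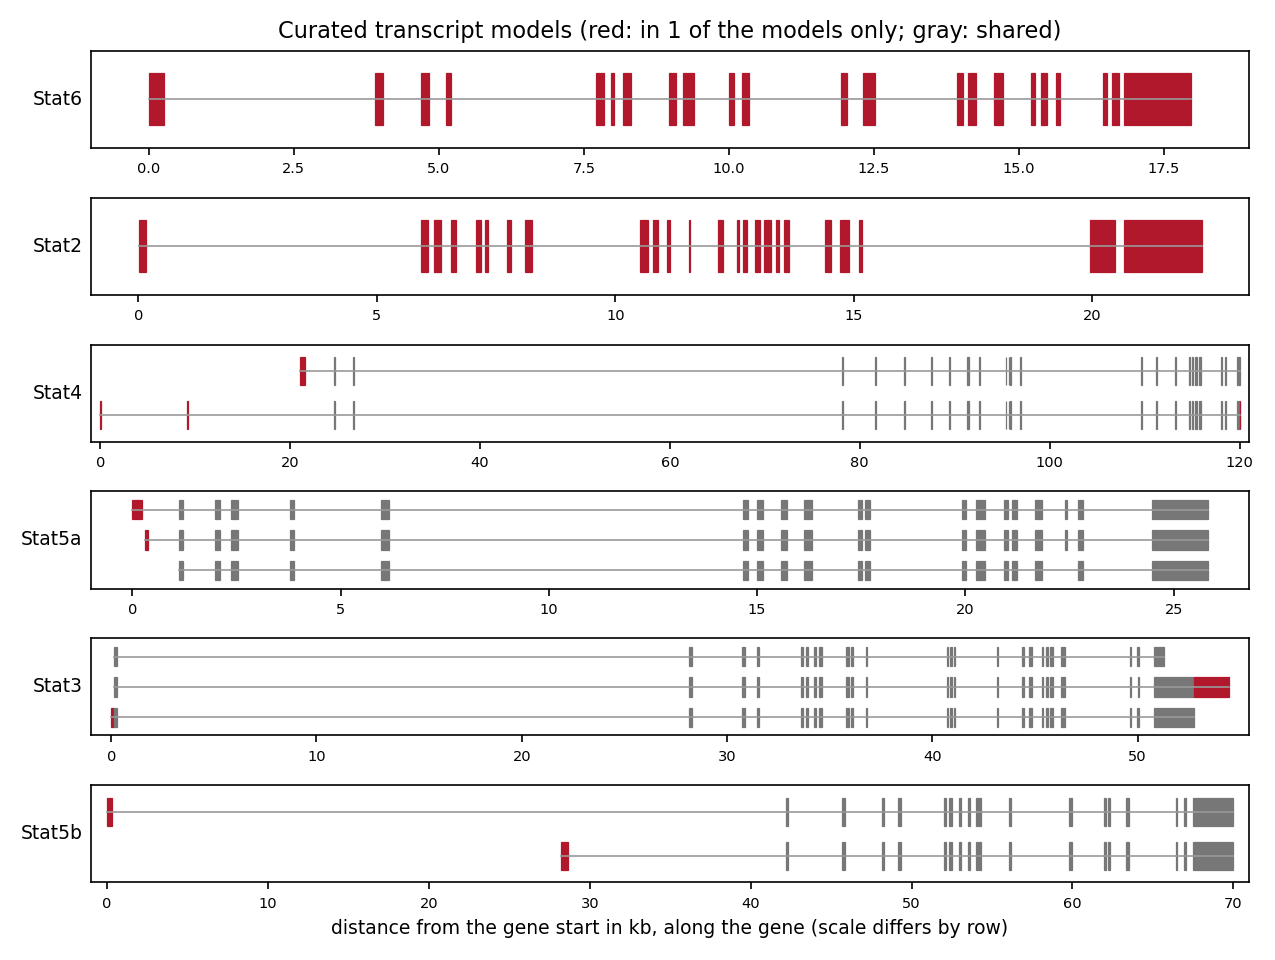
Curated transcript models of each STAT gene, drawn by distance from the gene start in kb along the gene; boxes are exons, red where the bases belong to 1 of the gene's models only and gray where models share them. Stat6 and Stat2 have 1 model and are red throughout. In Stat5a and Stat5b red is confined to the first exons, and in Stat4 to the first exons and a few last bases. In Stat3 it is mainly the end of 1 long last exon.

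Between the libraries the genes described differed little. None of the 6 genes was 1.2-fold apart with an interval excluding 1. Of all 10462 genes, 6.19% were 1.2-fold higher and 5.48% were 1.2-fold lower in the library labelled CREB KO by that rule, and 2.48% and 1.5% were 1.5-fold higher and lower. The median log2 ratio of the STAT genes was -0.03, against -0.01 for all genes tested, with 3 ratios above 1 and 3 below. Intervals lay below 1 for Stat4 and Stat6 and above 1 for Stat5a, where 19.5% and 16.2% of all genes had intervals below and above 1. The 6 genes together had 520 CPM in the library labelled CREB KO and 543 in the wildtype library, a ratio of 0.957 (0.934 to 0.980).

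Stat4 had the lowest ratio of the 6 genes. Its level was 71.7 CPM in the library labelled CREB KO and 83.6 in the wildtype library, 1.17-fold lower in the former (1.09 to 1.24). A lower ratio was found in 6.50% of the 7215 genes whose mean was at least 10 CPM. Among 3266 genes within 2-fold of its level, 7.62% were at least as far from a ratio of 1. Stat4 thus lay towards the lower edge of the spread between these libraries, but inside the middle 90% of genes, which runs from 0.843 to 1.18.

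The STAT5 genes had the highest ratios. Stat5a stood at 33.5 CPM in the library labelled CREB KO and 30.3 in the wildtype library, 1.11-fold higher (1.002 to 1.22), with an interval that barely excludes 1. Stat5b stood at 10.2 and 8.997, 1.14-fold higher, and its interval of 0.949 to 1.37 includes 1. Reads in their shared sequence fit both genes. The sum of the 2 genes, formed after the single values were seen, was 1051 and 1040 reads, a ratio of 1.11 (1.02 to 1.21). It is free of reads given to the wrong gene of the pair, but not of reads left out of the count. The counts are described as uniquely assigned reads, but the treatment of reads that fit both genes was not given. Such ratios were common, since 27.6% of genes of 10 CPM or more were at least as far from 1 as Stat5a.

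Stat3, Stat6 and Stat2 were closest to equal. Stat3 stood at 15.1 CPM in the library labelled CREB KO and 15.9 in the wildtype library, a ratio of 0.95 whose interval of 0.823 to 1.096 includes 1. Stat6 stood at 258 and 273, 1.06-fold lower (1.03 to 1.098). With its many reads the counting interval excludes 1, but 50.4% of genes of 10 CPM or more were at least as far from a ratio of 1. Stat2, at 132 and 131, had a ratio of 1.005 (0.957 to 1.05).

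**Figure D3:**
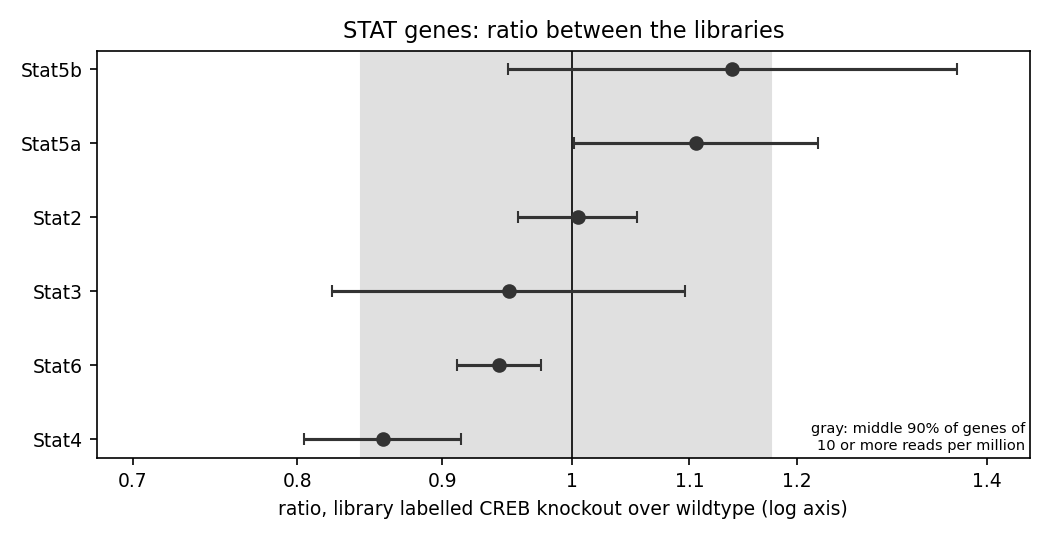
Ratio of each STAT gene in the library labelled CREB knockout over the wildtype library, on a log axis, with exact 95% intervals for counting error (1 library per group); the gray band holds the middle 90% of genes of 10 or more CPM (0.843 to 1.18). All 6 ratios lie inside the band, with Stat4 nearest its lower edge and Stat5b nearest its upper edge.

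A ratio of ratios is the read ratio of 2 family members in the library labelled CREB KO over that in the wildtype library. It does not depend on library scaling or on gene length, whereas the read ratios within a library depend on length. Of the 15 pairs, 7 differed between the libraries by more than counting error, and 4 of these had Stat4 as the lower gene. The pairs reuse 6 genes and no share over all gene pairs was computed, so this count is a description. Stat5a had 0.468 reads per Stat4 read in the library labelled CREB KO and 0.363 in the wildtype library, a ratio of ratios of 1.29 (1.15 to 1.452). For Stat5b over Stat4 the ratio of ratios was 1.33 (1.095 to 1.61), the furthest of the 15. Stat2 per Stat4 read was 1.84 and 1.57, a ratio of ratios of 1.17 (1.08 to 1.27), and Stat6 over Stat4 gave 1.099 (1.02 to 1.18). Stat5a reads per Stat3 read were 2.22 and 1.91, a ratio of ratios of 1.16 with an interval that includes 1 (0.978 to 1.39). The STAT5 genes themselves kept their proportion within counting error, with 0.306 and 0.297 Stat5b reads per Stat5a read (ratio of ratios 1.03, 0.836 to 1.27).

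Of the kinases that phosphorylate STATs, Jak1 serves most of the receptors named here. It had 271 CPM in the library labelled CREB KO and 300 in the wildtype library, 1.11-fold lower (1.07 to 1.15). Jak3, the partner of the common gamma chain, had 39.0 and 42.0, with a ratio of 0.927 (0.849 to 1.01). Jak2 (43 and 41 reads) and Tyk2 (52 and 55 reads) were counted at low levels. All 4 have 2 curated transcripts, and none was 1.2-fold apart (median log2 ratio -0.03).

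Receptor chains upstream of the STATs were mostly close to equal. Of 21 listed, 18 reached a mean of 1 CPM; 1 was 1.2-fold lower, none 1.2-fold higher and 17 neither, with a median log2 ratio of -0.01. Intervals lay above 1 for 4 chains and below 1 for 6. For this list and those below, the shares over all genes tested were 6.19% 1.2-fold higher and 5.48% 1.2-fold lower. Intervals lay above 1 for 16.2% and below 1 for 19.5% of all genes tested. The IL-23 receptor gene Il23r was 1.43-fold lower, at 21.5 and 30.9 CPM (1.28 to 1.60). Il12rb2, the IL-12 receptor chain that docks STAT4, was 1.19-fold lower (1.12 to 1.26) on 2068 and 2705 reads, whereas the shared chain Il12rb1 was at 287 and 291 CPM, a ratio of 0.988 (0.956 to 1.02). Among chains that use STAT5, the IL-2 receptor genes Il2ra (2944 and 2878 CPM) and Il2rb (914 in each) had ratios of 1.02 and 0.9999, the latter with an interval of 0.982 to 1.02. The common gamma chain Il2rg was 1.09-fold lower (1.07 to 1.104) and Il7r 1.15-fold lower (1.099 to 1.198). For STAT3, Il6st, the signalling chain of the IL-6 receptor, was 1.15-fold higher (1.04 to 1.28), Il6ra had a ratio of 1.02 and Il21r of 0.925. The IL-10 receptor gene Il10ra was 1.11-fold higher (1.01 to 1.23), and Il10rb had a ratio of 0.995. Il4ra, which docks STAT6, had a ratio of 1.04 (1.02 to 1.06). The interferon receptor genes Ifnar1, Ifnar2, Ifngr1 and Ifngr2 had ratios of 1.04, 0.924, 1.04 and 0.995, and Il27ra of 0.909.

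Of 14 measured STAT inhibitors, 1 was 1.2-fold higher and none 1.2-fold lower (median log2 ratio -0.01), and intervals lay above 1 for 3 and below 1 for 2. The higher gene was Socs2, a feedback inhibitor that STAT5 induces, at 49.8 and 38.7 CPM, 1.29-fold higher in the library labelled CREB KO (1.18 to 1.399). Socs4 had a ratio of 1.14 with an interval that includes 1 (0.983 to 1.33). At the other end, Ptpn2, a phosphatase that removes the activating phosphate of STATs, was 1.15-fold lower (1.05 to 1.26), and Socs6 had a ratio of 0.909 (0.802 to 1.03). Socs3, the feedback inhibitor of STAT3, was at 191 and 193 CPM, a ratio of 0.992 (0.953 to 1.03).

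Among 14 nuclear partners and coactivators, 1 was 1.2-fold higher and none lower (median log2 ratio 0.05), with 5 intervals above 1 and 4 below. Crebbp, the acetyltransferase that both CREB and STATs recruit, was 1.34-fold higher, at 120 and 89.7 CPM (1.27 to 1.42), and the coactivator gene Ncoa1 1.14-fold higher (1.06 to 1.23). Batf, an AP-1 factor that binds beside STAT3 at Th17 genes, was 1.14-fold lower (1.08 to 1.202) and Jun 1.08-fold lower (1.03 to 1.14).

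Genes tied to each STAT were then set beside its own level. The 9 lists hold 112 genes, 13 of them in more than 1 list, so their counts are not independent, and most of these genes answer to other factors too. Of 17 STAT3-linked Th17 genes, 5 were 1.2-fold lower, none 1.2-fold higher and 12 neither, with a median log2 ratio of -0.14. Intervals lay above 1 for 2 and below 1 for 10. Over all genes tested, 5.48% were 1.2-fold lower and 19.5% had intervals below 1. Of the 7215 genes of 10 CPM or more, 1766 had intervals below 1. The lower ones were Il17f at 2.78-fold (2.72 to 2.83), Il17a at 1.70-fold (1.65 to 1.75), Il23r, Rora and Ahr, while Fosl2 had a ratio of 1.04. The direction of Il17a and Il17f was known from these libraries when the list was drawn up, so it is no independent evidence. Stat3 itself differed by less than its counting error.

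Of 17 STAT5-linked genes listed, Myc had a count in neither library, and an unlisted gene was taken as 0 reads. Of the 16 measured, 3 were 1.2-fold higher, none 1.2-fold lower and 13 neither (median log2 ratio 0.12). Intervals lay above 1 for 10 of them and below 1 for 1. Over all genes tested, those shares were 16.2% and 19.5%, and 6.19% were 1.2-fold higher and 5.48% 1.2-fold lower. All 16 had a mean of 10 CPM or more. Of the 7215 genes at that level, 1316 had intervals above 1 and 1766 below. By the 1.2-fold rule, 271 of those genes were higher and 302 lower. The 3 higher list members were the protease gene Gzmb on 487 and 243 reads at 2.21-fold (1.89 to 2.59), the cytokine gene Lta at 1.34-fold (1.31 to 1.36) and Socs2. Cish, a feedback inhibitor that IL-2 induces through STAT5, was at 730 and 653 CPM, 1.12-fold higher (1.09 to 1.14). The survival gene Mcl1 was 1.05-fold lower (1.02 to 1.08), and the cyclin gene Ccnd3 had a ratio of 0.889 (0.783 to 1.01). Over the members with 1 curated transcript the median was 0.04. Whether the STAT5 levels have a part in these ratios was not tested.

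Of 8 measured STAT4-linked genes, 1 was lower, 1 higher and 6 neither at 1.2-fold, with a median log2 ratio of -0.13, 1 interval above 1 and 3 below. Over the members with 1 curated transcript the median was 0.07, so the direction of the list turns with that choice. Il18r1, an IL-18 receptor chain, was 1.28-fold lower (1.14 to 1.44) and the stress gene Gadd45g 1.28-fold higher (1.198 to 1.37), while the kinase gene Map3k8 was 1.09-fold lower (1.02 to 1.17). Ifng, the main STAT4 target of Th1 cells, had 11 and 6 reads, too few for a direction. Of 6 measured STAT6-linked genes, 1 was 1.2-fold lower, none higher and 5 neither (median log2 ratio 0.01), with 3 intervals above 1 and 1 below. Ecm1, which encodes a matrix protein of Th2 cells, was 1.32-fold lower (1.204 to 1.452), the chemokine receptor gene Ccr4 was 1.11-fold higher (1.08 to 1.14) and Il24 had a ratio of 0.962 (0.919 to 1.01). The STAT6 target cytokines Il4, Il5 and Il13 had at most 13 reads in either library, beside the high count of Stat6 itself.

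Of 14 measured interferon genes that the STAT2 complex drives, 3 were 1.2-fold lower, none higher and 11 neither, against 5.48% lower over all genes tested. The median log2 ratio was 0.00, with 1 interval above 1 and 3 below. Ifi44 had 17 and 46 reads and was 2.42-fold lower (1.38 to 4.57). At 0.708 and 1.74 CPM, it reached a mean of 1 CPM only through the wildtype library. Among list members of 10 CPM or more, 2 were 1.2-fold lower, beside 302 of all 7215 genes at that level. These members were the ubiquitin-like gene Isg15, 1.25-fold lower (1.11 to 1.42), and Usp18, its protease, 1.21-fold lower (1.03 to 1.43). Zbp1, a nucleic acid sensor, was 1.17-fold higher (1.09 to 1.27), and Bst2 had a ratio of 1.05 with an interval that includes 1 (0.983 to 1.12). Irf9, the DNA-binding partner of STAT2, had 33 and 35 reads, beside 3160 and 3467 for Stat2. Irf9 has 3 curated transcripts and Stat2 has 1, and the part of the counting in that gap was not tested.

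**Figure D4:**
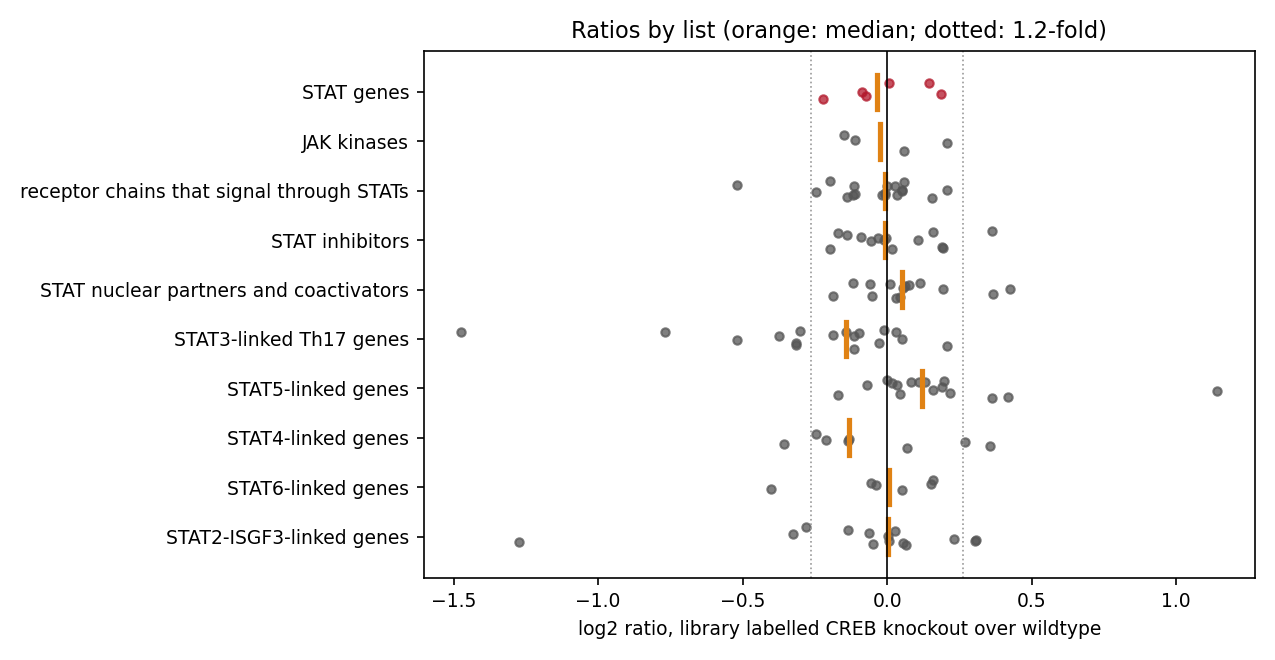
Log2 ratio of each measured gene in the library labelled CREB knockout over the wildtype library, by list; each point is a gene, orange bars are list medians and dotted lines mark 1.2-fold. The STAT genes (red) lie between the dotted lines. The medians furthest from 0 are those of the STAT3-linked (-0.14), STAT4-linked (-0.13) and STAT5-linked (0.12) lists. All lists were drawn up with earlier results of these data known.

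Genes beside the STAT genes on the chromosome had the following ratios. Il23a, which encodes the IL-23 subunit that activates STAT3 and STAT4 signalling, starts its interval 3290 bases from Stat2. It had 205 reads in the library labelled CREB KO and 110 in the wildtype library, 2.05-fold higher (1.62 to 2.61), next to a Stat2 ratio of 1.005. Nab2, which encodes a corepressor of EGR factors, overlaps the end of Stat6 by 40 bases on the opposite strand. It was 1.34-fold higher (1.17 to 1.53), and Lrp1 on the other side of Stat6 was 1.404-fold higher (1.27 to 1.56), while Stat6 was 1.06-fold lower. Ghdc, beside Stat5b, was 1.31-fold higher (1.09 to 1.58). On the other side of Stat3 from Stat5a, Cavin1 (named Ptrf in the files) had 30 and 44 reads, with an interval that includes 1 (0.456 to 1.22). Apof, beside Stat2, had at most 2 reads. Whether the counting used strand is not given, so reads in the overlaps of Stat6 with Nab2 and of Stat3 with Stat5a cannot be told apart.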

How the data were processed

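For each library the authors deposited raw counts, per the file headers the number of uniquely assigned reads of each gene symbol. Tools named in the submitters' processing notes are bcl2fastq and HTSeq, and the build is mm10. Aligner, annotation, strand setting and treatment of shared reads were not given in the sources used here. An unlisted gene was taken as 0. Scaling used edgeR's trimmed mean of M-values (edgeR 4.0.16, R 4.3.3), and ratios used a prior count of 0.5. Intervals are exact: conditional binomial for ratios, Poisson for levels, Clopper-Pearson for shares. With 1 library per group, edgeR's quasi-likelihood test could not be fitted. Genes entered at a mean of 1 CPM, and were called apart at 1.2-fold or 1.5-fold with an interval excluding 1. Lengths and positions are from GENCODE M21, curated transcripts and start sites from RefSeq (GRCm38.p6); coding sequences were aligned with mafft 7.526.

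The genes and lists were chosen with earlier results of these data known. Named genes are all STAT genes described, Creb1, JAK and receptor genes of 10 CPM or more, in each other list the 2 highest and 2 lowest ratios at that level and all members 1.5-fold apart, and chromosomal neighbours. The other genes named (Il21, Ccr6, Il1r1, Trac, Cd8a, Cd8b1, Socs3, Rora, Ahr, Myc, Ifng, Il4, Il5, Il13, Irf9, Jak2, Tyk2) were chosen after their values were seen. Some genes the rule takes are not reported here. On counts simulated with counting noise for these libraries, 95.3% of intervals of 7013 unchanged genes held 1, 23 of these genes were called 1.2-fold apart, and 25 of 50 genes changed 1.2-fold and 50 of 50 changed 1.5-fold were recovered. Real libraries spread more widely, so this is no error rate. Python 3.11.15 with numpy 2.4.6, scipy 1.17.1, pandas 2.3.3 and matplotlib 3.10.9 was used. Alternatives were scaling by totals, DESeq2 1.42.0 size factors or upper quartiles, a larger prior (5), thinned reads, other filters and other lengths.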

Additional observations from a re-analysis of the deposited data

How the results depend on the processing

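Each STAT gene kept its direction and its side of 1 under scaling by totals, DESeq2 size factors and upper quartiles, a prior count of 5 and thinning: Stat4 ranged from 0.850 to 0.862, Stat6 from 0.941 to 0.947, Stat3 from 0.940 to 0.955, Stat2 from 1.002 to 1.01, Stat5a from 1.106 to 1.112 and Stat5b from 1.13 to 1.15. With the union of exons as length, Stat3 and Stat5b swapped places 5 and 6 in the library labelled CREB KO. With bases in 1 curated transcript only, a scale added after seeing the data, the order in both libraries was Stat4 at 1, Stat5a at 2, Stat6 at 3, Stat2 at 4, Stat5b at 5 and Stat3 at 6. Over all genes, 648 were 1.2-fold higher, 573 1.2-fold lower, 259 1.5-fold higher and 157 1.5-fold lower. At a mean of 10 CPM, which keeps 7215 of the 10462 genes, these counts were 271, 302, 23 and 17. Over genes with 1 curated transcript (also added later) they were 345, 299, 127 and 94. That setting also keeps fewer genes, 5231 of them protein-coding. Counts from such smaller sets are not shares, so a lower count is not a lower share. Without a filter 521 were 1.5-fold higher and 300 lower. Among the fewer list members with 1 curated transcript, 0 inhibitors were 1.2-fold higher. There, 3 STAT3-linked genes and 0 STAT4-linked and 0 STAT6-linked genes were 1.2-fold lower, and the STAT5-linked median was 0.039. The STAT4-linked median was then 0.07, and -0.03 without a filter, where the STAT6-linked median was 0.15. Medians of the receptor, inhibitor, STAT6-linked and STAT2-linked lists, all near 0, changed sign in some settings. No paired analysis was possible because each group had 1 library. Depth leaves the directions of Stat2, Stat3 and Stat5b undecided even for counting error, and no replicate error can be given for any gene.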
